A study of Mus musculus with 96 samples.

Results

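Chemokines and their receptors were followed in forebrain, cerebellum, liver and kidney of sleep-deprived and undisturbed mice. The set holds every gene of the count table whose Ensembl identifier carries a chemokine or chemokine receptor symbol in GENCODE M21 (the Ccl, Cxcl, Cx3cl1 and Xcl1 ligands, the Ccr, Cxcr, Cx3cr1 and Xcr1 receptors and the Ackr atypical receptors). It has 60 members among the 54833 features of the table. They comprise 38 ligands and 22 receptors. By role, there were 18 signalling receptors, 4 atypical receptors, 17 inflammatory CC or XC ligands, 13 homeostatic or constitutive ligands, 5 CXCR2 ligands and 3 CXCR3 ligands. Ccl21c and the second locus named Ccl27 are not analysed here.

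All mice were male wild-type C57BL/6 animals aged 6 to 8 weeks with free food and water. They were housed under a light and dark cycle and moved to constant darkness before tissues were taken, per the study's text. Sleep-deprived mice (SD) walked in a slowly rotating drum for 10 h, from 6 AM to 4 PM, in their resting phase, and control mice (CON) were left undisturbed. The drum thus combines lost sleep with forced walking, and these cannot be told apart here. Tissue collection followed at intervals of 4 h, with CT4 the earliest and CT24 the latest of 6 circadian times (CT). In SD libraries circadian time is therefore also time since the deprivation. Time of day and stage of recovery cannot be separated there. Each time and condition had 2 biological replicates, which gives 12 CON and 12 SD libraries per tissue. For the sleep deprivation experiment it is not given in the sources used here whether tissues of one replicate number came from one mouse.

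Chemokines are small secreted proteins that set up gradients along which leukocytes move. They signal through G protein-coupled receptors on the responding cell, which activate phosphoinositide 3-kinase, Rac and the actin machinery. Inflammatory ligands are switched on in macrophages, endothelium and parenchymal cells by interferon and NF-kappa B, whereas homeostatic ligands such as Cxcl12 are made steadily by stroma and position resident cells. Atypical receptors bind chemokines without G protein signalling and remove them from tissue. In liver, chemokines recruit monocytes, T cells and natural killer cells from the sinusoids, and in brain the neuronal ligand Cx3cl1 reaches microglia through Cx3cr1.

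The libraries held between 24.76 and 58.49 M counts (megacounts), with a median of 33.75 M. Tissue identity matched the labels in all tissues. A sum of 6 hepatocyte markers had a median of 82180 CPM (counts per 1 M counts of the library) in CON liver and 493 in CON kidney. In kidney, 10 of the 12 libraries titled SD carry the word control in another label field, and 20 of 24 differ there in treatment or time. The titles, which match the columns of the count table, were used. In the cerebellum, CON CT8 replicate 1 had 3.6% of its counts on genes annotated as antisense, whereas no other cerebellum library exceeded 0.979%. All cerebellum values and the tests across tissues include this library. Values without it are given beside the averaged and CT8 comparisons in cerebellum and the test among 4 tissues. For a difference at any time and for rhythm in cerebellum, the share of all genes without it is given. Genes were tested where counts passed a minimum that depends on library size, which left 31 members in forebrain, 25 in cerebellum, 43 in liver and 43 in kidney. The 29, 35, 17 and 17 members below it had at most 10 counts in any forebrain library, 60 in cerebellum, 16 in liver and 12 in kidney. The value of 60 was Cxcr1, a neutrophil receptor, in the same cerebellum library CON CT8 replicate 1. Below the minimum in both liver and kidney were Ackr1, Ccl1, Ccl3, Ccl20, Ccl21b, Ccl26, Ccl27b, Ccr4, Ccr8, Cxcl3, Cxcl15 and Cxcr1. Liver alone also lacked enough counts for Ccl4, Ccl11, Ccl12, Ccl17 and Ccr10, and kidney alone for Ccr3, Ccr6, Cxcl2, Cxcl5 and Xcl1.

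Levels between genes were compared as counts scaled to exon length and library total (FPKM) over the 24 libraries of a tissue. The neuronal ligand Cx3cl1 was the most abundant member measured anywhere. In forebrain its level ranged from 101 to 173 FPKM with a median of 146. Its median was 25.2 FPKM in kidney, 6.94 in cerebellum and 0.287 in liver, and no library of another tissue reached the lowest forebrain value. Cx3cr1, its receptor on microglia and monocytes, was also highest in forebrain, with a median of 9.55 FPKM (7.55 to 11.9) against 2.43 in cerebellum, 2.15 in kidney and 0.519 in liver. The forebrain range of Cx3cr1 lay above all libraries of the other tissues, while those of cerebellum and kidney overlapped. Cxcl14, a constitutive ligand of epithelia and neurons, also peaked in forebrain with a median of 25.1 FPKM (21.1 to 42.7). Ccl27a had a median of 17.1 FPKM there and Cxcl12 of 9.56.

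**Figure D1:**
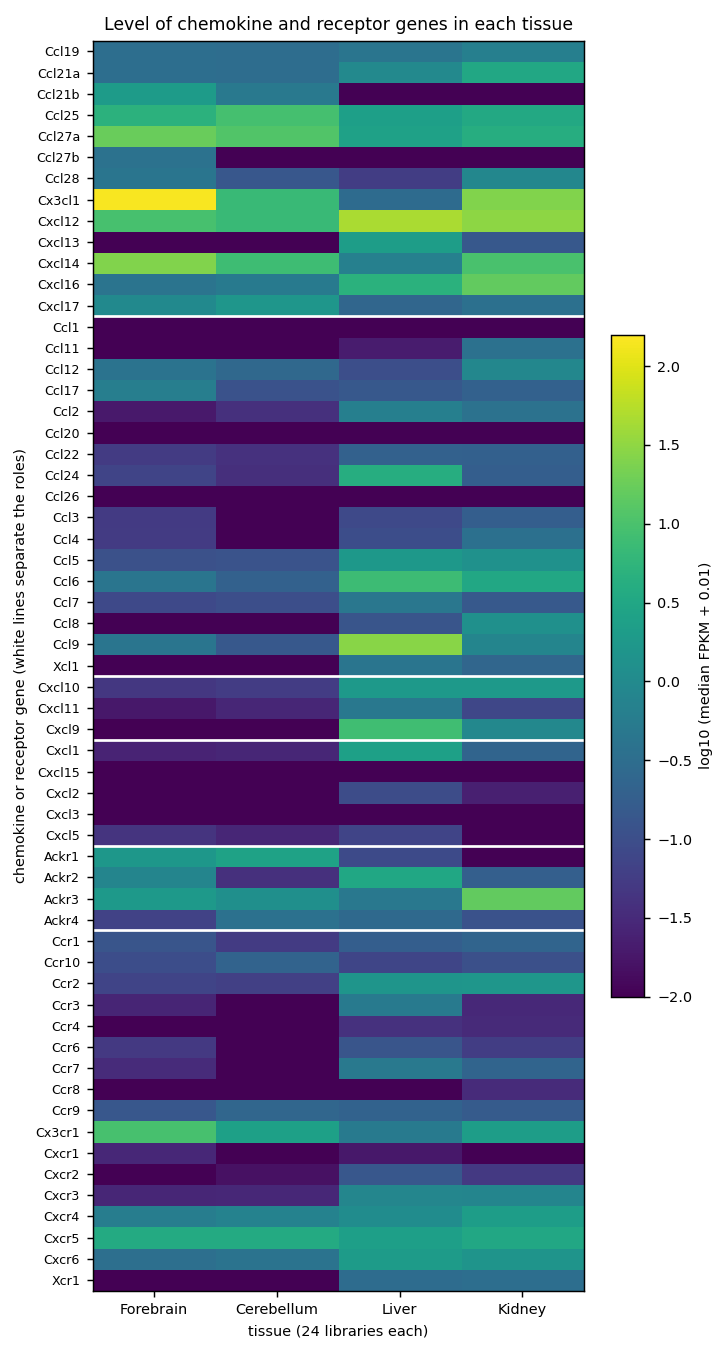
Heat map of chemokine and receptor genes (rows, by role) in the 4 tissues (columns), coloured by the log10 of the median FPKM over 24 libraries plus 0.01. Cx3cl1 stands highest in forebrain at a median of 146 FPKM, and Cxcl12 leads in liver and kidney at 46.3 and 30.2 FPKM.

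Liver and kidney were both led by Cxcl12, the stromal ligand of Cxcr4. Its level had a median of 46.3 FPKM in liver (32.9 to 56.5) and 30.2 in kidney (19.2 to 38.2), and these ranges overlapped. Ccl9, a macrophage ligand of Ccr1, had a median of 28.4 FPKM in liver (20.6 to 39.0) and stayed at or below 1.84 FPKM in every library of the other tissues. Liver also held Cxcl9 at 8.04 FPKM, Ccl6 at 7.58 and Cxcl16 at 4.80. In kidney Cx3cl1 came second at 25.2 FPKM. Next were Cxcl16, a membrane-bound ligand of Cxcr6, at a median of 15.7 FPKM (12.01 to 21.5), and Ackr3, the scavenger of Cxcl12, at 15.6 FPKM (9.53 to 23.2), whose ranges overlapped. Cxcl14 followed at 9.68 FPKM. The cerebellum had lower levels, led by Ccl27a at 11.6 FPKM and Ccl25 at 9.11, with Cxcl14 at 7.85, Cxcl12 at 7.12 and Cx3cl1 at 6.94.

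Liver was the tissue with the highest median for 25 members, and for 8 of them its lowest library exceeded the highest library of any other tissue, where 30.8% of all genes that were highest in liver did so. Among them were Ackr2, Ccl9, Ccl24, Ccr3, Cxcl1, Cxcl9 and Cxcl11. Kidney led for 15 members (Ackr3 and Cxcl16 apart from all other libraries, against 31.0% of the genes highest in kidney). Forebrain led for 8 (Cx3cl1, Cx3cr1 and Cxcl14 apart, against 22.6%) and cerebellum for 7 (Ccl25 apart, against 23.0%). A median of at least 1 FPKM was reached by 18 members in liver, 17 in kidney, 10 in forebrain and 10 in cerebellum.

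To ask how sleep deprivation moved these genes, SD was compared with CON averaged over the 6 times with edgeR's quasi-likelihood test, adjusted by Benjamini-Hochberg over all genes tested and called at an adjusted p under 0.05. In liver 19 of the 43 tested members were lower in SD and 2 were higher, where 8.80% of all 19708 genes tested were lower and 9.42% higher (18.2% called in either direction). The median log2 change of the members was -0.32, and that of all genes was close to zero. The fall was spread over signalling receptors, of which 9 of 14 tested were lower, inflammatory ligands with 5 of 9, CXCR3 ligands with 2 of 3 and CXCR2 ligands with 1 of 3. Among 11 homeostatic ligands 2 were lower and 1 higher, and among 3 atypical receptors 1 was higher. Fewer cells of a type and less RNA per cell cannot be told apart in whole tissue. Fold changes below use trimmed-mean (TMM) scaling, while CPM values are divided by library totals alone, so the pair can differ slightly.

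Several of the receptors lie together on chromosome 9 in GRCm38, with Xcr1 at chr9:123852315-123862029, Ccr1 at chr9:123962124-123968692 and Ccr2 at chr9:124101950-124113557. Ccr2, the Ccl2 receptor by which inflammatory monocytes leave blood, had the smallest p among the liver members. It ranged in the 12 CON livers from 9.91 to 20.8 CPM with a median of 13, and in the 12 SD livers from 3.80 to 10.6 with a median of 5.66. In 11 SD livers Ccr2 was below every CON liver. Its log2 change was -1.03 ± 0.11 (SE, n = 12 and 12, adjusted p = 8.15e-06 by edgeR), or 0.491 times the CON level.

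Xcr1, which marks cross-presenting dendritic cells, was scarcer and also lower in SD. Its CON range was 1.11 to 3.53 CPM (median 2.21) and its SD range 0.698 to 1.49 (median 0.918), with a log2 change of -1.14 ± 0.15 (SE, adjusted p = 4.90e-05 by edgeR). For Xcr1, 9 of 12 SD livers lay below every CON liver.

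Cxcr6, Cxcr3 and Ccr7 were lower as well. Cxcr6, carried by liver-resident T and natural killer cells, went from a median of 4.90 CPM (3.37 to 6.97) in CON to 3.31 (2.58 to 3.93) in SD, with a log2 change of -0.50 ± 0.09 (SE, adjusted p = 0.000371). Cxcr3, the receptor for the interferon-induced ligands, went from 2.04 CPM (1.35 to 3.0) to 1.09 (0.731 to 1.78), a log2 change of -0.69 ± 0.14 (SE, adjusted p = 0.00146). Ccr7, which guides dendritic cells and naive lymphocytes to lymph nodes, went from 1.24 CPM (0.712 to 1.77) to 0.732 (0.351 to 1.31), a log2 change of -0.56 ± 0.14 (SE, adjusted p = 0.00803). All of them overlapped between groups, and each was lower in SD at 6 of 6 times.

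Among the myeloid receptors, Cx3cr1 went from a median of 2.71 CPM (1.75 to 4.23) to 1.86 (1.14 to 2.97), with a log2 change of -0.60 ± 0.12 (SE, adjusted p = 0.000985). Ccr1, a receptor for Ccl3, Ccl5 and Ccl9 on monocytes and neutrophils, went from 0.676 CPM (0.384 to 1.26) to 0.328 (0.227 to 0.937), a log2 change of -0.77 ± 0.18 (SE, adjusted p = 0.0043). Cxcr2, the main neutrophil receptor, went from 0.599 CPM (0.317 to 1.36) to 0.332 (0.0284 to 0.780), a log2 change of -0.81 ± 0.26 (SE, adjusted p = 0.0305). The Cxcr2 call was lost in 7 of 24 fits that each left out 1 library. The 5 signalling receptors that did not pass the test were Ccr3, Ccr6, Ccr9, Cxcr4 and Cxcr5, with log2 values from -0.32 to 0.07.

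**Figure D2:**
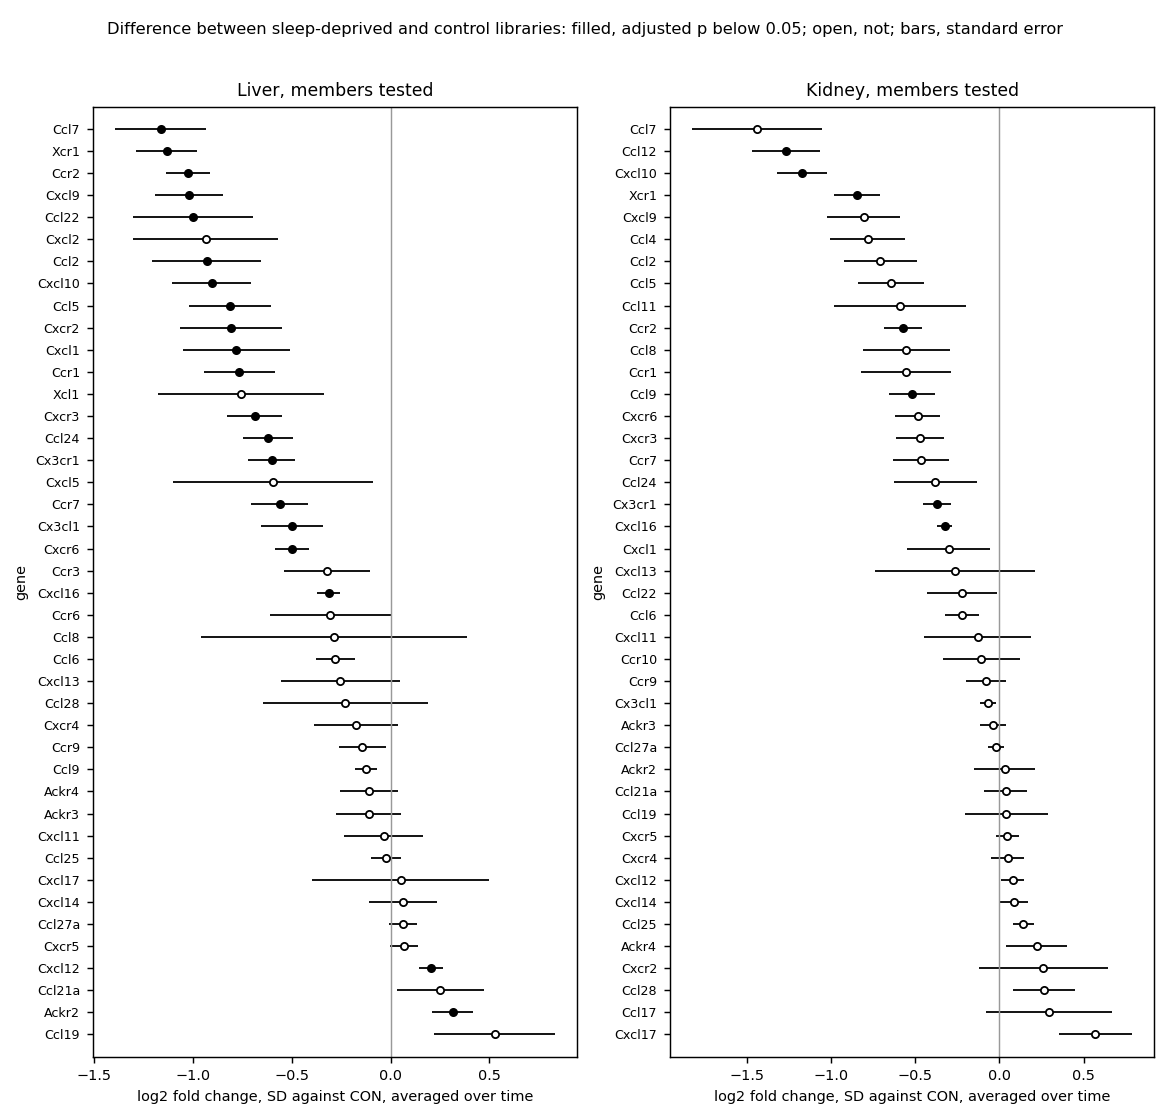
Log2 change in SD against CON averaged over 6 times for tested members in liver and kidney, with bars for the standard error and filled points for an adjusted p under 0.05. Filled points lie left of zero in both organs, with Ccr2 at -1.03 in liver and Cxcl10 at -1.17 in kidney, except Cxcl12 and Ackr2 in liver, which did not pass with library totals alone.

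Of the inflammatory ligands 5 of 9 tested were lower in SD liver, and of the CXCR3 ligands 2 of 3. The CXCR3 ligands are neighbours on chromosome 5, with Cxcl9 at chr5:92321347-92328079, Cxcl10 at chr5:92346638-92348889 and Cxcl11 at chr5:92359544-92365485. Cxcl9, an interferon-gamma-induced ligand of Cxcr3, was the most abundant of them. It ranged from 22.7 to 54.4 CPM in CON livers (median 30.7) and from 6.58 to 33.5 in SD livers (median 14.4), and 11 of 12 SD livers were below every CON liver. Its log2 change was -1.02 ± 0.17 (SE, adjusted p = 0.000315 by edgeR). Cxcl10, the second Cxcr3 ligand, went from a median of 6.39 CPM (3.02 to 11.6) to 2.97 (1.46 to 6.24), a log2 change of -0.91 ± 0.20 (SE, adjusted p = 0.00269). Cxcl11, the third, had medians of 2.23 and 1.73 CPM and did not pass the test, at a log2 value of -0.03 ± 0.20 (SE).

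The monocyte-attracting ligands were scarce. Ccl2, the ligand of Ccr2, went from a median of 1.07 CPM (0.461 to 2.06) in CON livers to 0.530 (0.155 to 1.10) in SD livers, a log2 change of -0.93 ± 0.28 (SE, adjusted p = 0.0211). Ccl7, a second Ccr2 ligand, went from 0.525 CPM (0.352 to 1.26) to 0.268 (0.118 to 0.449), a log2 change of -1.17 ± 0.23 (SE, adjusted p = 0.00119). These levels rest on few counts per library, and without CON CT8 replicate 2 the adjusted p of Ccl2 became 0.0511. Ccl5, made by T and natural killer cells, went from 2.60 CPM (1.30 to 4.70) to 1.19 (0.710 to 2.98), a log2 change of -0.81 ± 0.21 (SE, adjusted p = 0.0079). Ccl24, an eosinophil attractant made by macrophages, went from 6.31 CPM (4.40 to 9.42) to 3.77 (2.92 to 5.42), a log2 change of -0.62 ± 0.12 (SE, adjusted p = 0.00123). Ccl22, a dendritic cell ligand of Ccr4, went from 0.747 CPM (0.226 to 1.20) to 0.322 (0.0568 to 0.711), a log2 change of -1.0 ± 0.30 (SE, adjusted p = 0.0236, or 0.0505 without CON CT4 replicate 1).

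Of the CXCR2 ligands, Cxcl1, which draws neutrophils, passed the test narrowly. It had medians of 6.56 CPM in CON (3.41 to 15.3) and 2.99 in SD (1.29 to 15.6), with a log2 change of -0.78 ± 0.27 (SE, adjusted p = 0.047). The highest value of both groups was an SD liver at CT16, and the call was lost in 18 of 24 fits without 1 library. Cxcl2 and Cxcl5 had log2 values of -0.94 ± 0.37 and -0.60 ± 0.50 (SE) and did not pass.

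Homeostatic ligands split in liver. Cxcl16, the Cxcr6 ligand, went from a median of 16.2 CPM (14.1 to 22.9) to 11.6 (9.95 to 16.3), with 9 of 12 SD livers below every CON liver. Its log2 change was -0.31 ± 0.06 (SE, adjusted p = 0.000668). Cx3cl1, at 1.73 CPM (0.712 to 2.74) in CON and 1.0 (0.474 to 1.88) in SD, had a log2 change of -0.50 ± 0.16 (SE, adjusted p = 0.0286), which was lost in 5 of 24 fits without 1 library.

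Cxcl12 and the chemokine scavenger Ackr2 were the members called higher in SD liver. Cxcl12 had medians of 378 CPM (269 to 449) in CON and 384 (311 to 462) in SD, with a TMM-scaled log2 change of 0.20 ± 0.06 (SE, adjusted p = 0.0193). Ackr2 had medians of 8.90 CPM (4.73 to 15.1) and 10.5 (5.06 to 12.8), with a log2 change of 0.31 ± 0.10 (SE, adjusted p = 0.0376). Both calls depended on the scaling. With library totals alone, which move the median of all liver genes to -0.13, the log2 changes were 0.07 for Cxcl12 and 0.18 for Ackr2. Neither passed. Under that scaling 22 members were called, all lower, where 3766 of 19708 genes were called lower. The Ackr2 call was also lost in 11 of 24 fits without 1 library. The abundant macrophage ligands Ccl9 (97.1 and 80.4 CPM, adjusted p = 0.123) and Ccl6 (15.5 and 12.2 CPM, adjusted p = 0.0533) did not pass. Both were called lower with library totals alone, and Ccl6 also with no low-count filter, with the stricter filter and by DESeq2.

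The promoters of Cxcl9, Cxcl10 and Cxcl1 are shown because these ligands were called lower in liver and are textbook targets of interferon and NF-kappa B. The call of Cxcl1 was lost in 18 of 24 fits without 1 library. Sequences are from RefSeq on GRCm38.p6, taken 5′ to 3′ on the gene's strand, with motif matches in capitals. Those of Cxcl9 and Cxcl10 run up to the start of transcription. That of Cxcl1 is printed to 90891240, short of 90891244, the last base before its start. The Cxcl9 window (chr5:92328080-92328329, minus strand) holds an interferon response core (ISRE, GAAANNGAA). The Cxcl10 window (chr5:92348890-92349139, minus strand) holds an ISRE core followed by kappa B matches, which overlap each other at the last place. The Cxcl1 window (chr5:90890995-90891240, plus strand) holds overlapping kappa B matches.
Cxcl9: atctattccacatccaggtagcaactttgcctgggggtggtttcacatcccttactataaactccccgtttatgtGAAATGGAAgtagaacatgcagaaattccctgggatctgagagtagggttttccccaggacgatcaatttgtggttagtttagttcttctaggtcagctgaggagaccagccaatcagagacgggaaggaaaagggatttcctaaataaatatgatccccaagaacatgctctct
Cxcl10: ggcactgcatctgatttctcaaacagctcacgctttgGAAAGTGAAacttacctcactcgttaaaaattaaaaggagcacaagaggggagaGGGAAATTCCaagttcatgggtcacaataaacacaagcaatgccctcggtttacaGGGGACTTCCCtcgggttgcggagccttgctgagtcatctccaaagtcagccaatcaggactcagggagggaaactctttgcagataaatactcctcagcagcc
Cxcl1: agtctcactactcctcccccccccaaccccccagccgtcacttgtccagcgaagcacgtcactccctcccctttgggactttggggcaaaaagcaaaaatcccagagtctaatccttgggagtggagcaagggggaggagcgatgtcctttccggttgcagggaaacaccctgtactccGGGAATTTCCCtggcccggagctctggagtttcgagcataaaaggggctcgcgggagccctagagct

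Motifs were searched on both strands in windows of 300 bases around each RefSeq start, which were found for 45 members and for 12 of the 19 that were lower in liver. The ISRE core lay in 3 of these 12 (Ccr2, Cxcl9 and Cxcl10), in 8 of the 45 and in 8.56% of all 32851 promoters. Kappa B matches lay in 3 of the 12 (Ccr1, Cxcl1 and Cxcl10), in 12 of the 45 and in 8.46% of all promoters. The interferon-gamma element GAS (TTCNNNGAA) lay in 0 of the 12 and in 3 of the 45, against 8.30% of all. The clock E-box CACGTG lay in 1 of the 12 (Xcr1) and 2 of the 45, against 7.15% of all. A match is a string of letters and says nothing of binding.

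The test for a difference at any of the 6 times called 6 members in liver, where 3.56% of all genes were called. Among them, adjusted p values were 0.00276 for Ccr2, 0.00682 for Xcr1, 0.0128 for Cxcl9, 0.0129 for Cxcl1 and 0.038 for Cxcr6. The Cxcr6 call was lost in 16 of 24 fits without 1 library, and that of Cxcl1 became 0.0548 without SD CT8 replicate 1. At single times, with 2 against 2 libraries, 4 member-by-time tests passed, where 0.111% of all such tests did. At CT8 the CON livers had 11.2 and 15.3 CPM of Cxcl1 and the SD livers 2.05 and 2.60, a log2 change of -2.38 (adjusted p = 0.0338). At the same time Ccr2 was at 13.9 and 20.8 CPM against 6.17 and 5.83, a log2 change of -1.40 (adjusted p = 0.0338). These calls of Cxcl1 and Ccr2 were lost without single libraries of the compared pairs. Leaving out SD CT8 replicate 1 gave an adjusted p of 0.525 for each, and leaving out CON CT8 replicate 2 gave 0.0997 for Cxcl1 and 0.198 for Ccr2. Without SD CT8 replicate 2 they were 0.0745 for Cxcl1 and 0.0887 for Ccr2.

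**Figure D3:**
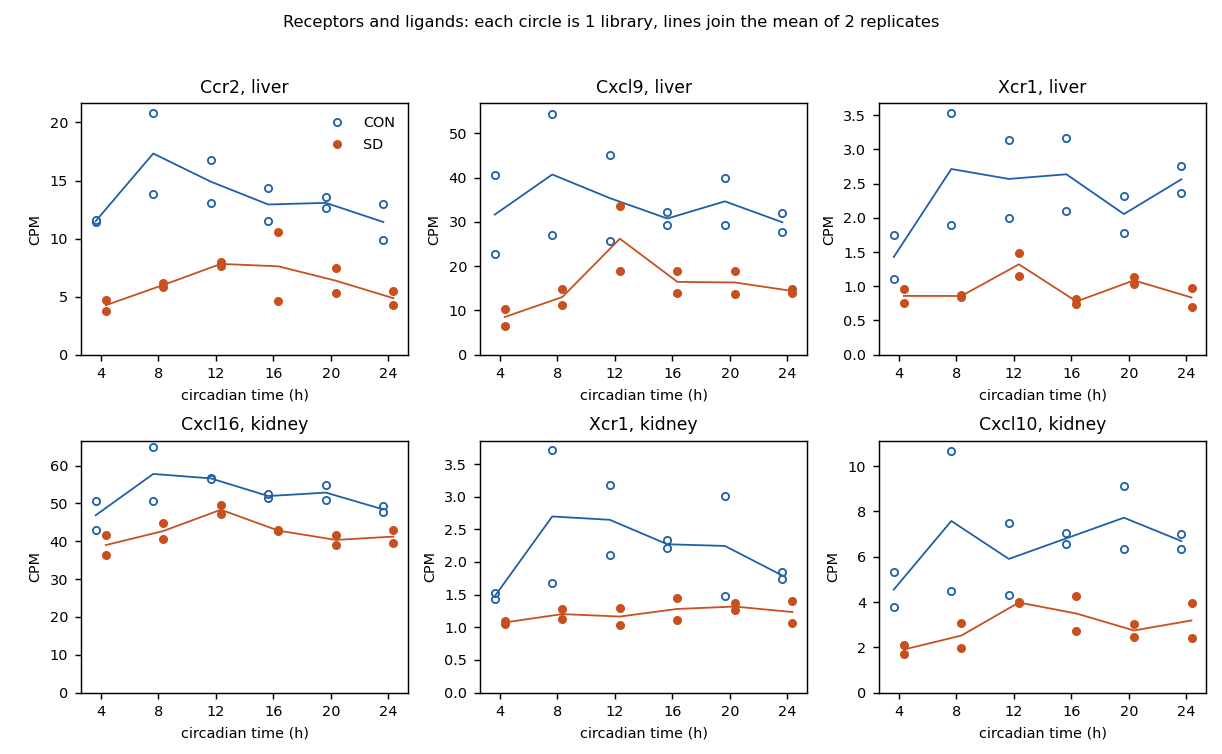
CPM of receptors and ligands by circadian time in liver and kidney, with each circle 1 library and lines through the mean of 2 replicates. The SD mean of Xcr1 lies below the CON mean at all 6 times in both tissues.

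In kidney 8 of the 43 tested members were lower in SD and 0 higher, where 2.12% of all 21528 genes tested were lower and 2.30% called in either direction. A total of 21 members reached an unadjusted p under 0.05, where 2812 of 21528 genes did. DESeq2 called 13 members, where it called 706 of 20693 genes. The median log2 change of the members was -0.26. Signalling receptors made up 4 of the 8 calls (of 13 tested), with 2 of 12 inflammatory ligands, 1 of 3 CXCR3 ligands and 1 of 11 homeostatic ligands. No atypical receptor or CXCR2 ligand was called.

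In kidney Xcr1 ranged from 1.43 to 3.72 CPM (median 1.98) in CON and 1.03 to 1.45 (median 1.20) in SD, so that 11 of 12 SD kidneys lay below every CON kidney. Its log2 change was -0.84 ± 0.14 (SE, adjusted p = 0.000701). Ccr2 overlapped more, at 12.8 CPM (9.42 to 22.6) against 9.51 (7.20 to 11.6), with a log2 change of -0.57 ± 0.11 (SE, adjusted p = 0.00465). Cx3cr1 went from 11.1 CPM (8.65 to 14.5) to 8.96 (6.33 to 10.7), a log2 change of -0.37 ± 0.08 (SE, adjusted p = 0.0162).

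Among kidney ligands, Cxcl10 ranged from 3.76 to 10.7 CPM in CON (median 6.47) and from 1.68 to 4.27 in SD (median 2.87). In 8 of 12 SD kidneys it was below every CON kidney, and the log2 change was -1.17 ± 0.15 (SE, adjusted p = 7.85e-05 by edgeR). Cxcl16, abundant in this organ, went from 51.1 CPM (43.0 to 65.0) to 42.2 (36.3 to 49.5), a log2 change of -0.33 ± 0.04 (SE, adjusted p = 0.000135). Ccl12, a monocyte attractant that binds Ccr2, was scarce but went from 0.644 CPM (0.347 to 1.43) to 0.302 (0.106 to 0.534), a log2 change of -1.27 ± 0.20 (SE, adjusted p = 0.000623). Ccl9 went from 2.79 CPM (2.15 to 5.6) to 2.25 (1.36 to 3.41), with a log2 change of -0.52 ± 0.13 (SE, adjusted p = 0.0424), and its call was lost in 17 of 24 fits without 1 library. Next in order were Ccl7, Cxcr6 and Cxcl9, with log2 values of -1.44, -0.49 and -0.81 and adjusted p values of 0.0519, 0.0533 and 0.0534.

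The test at any time called 4 members in kidney, against 0.725% of all genes. Among them, adjusted p values were 0.0127 for Cxcl10, 0.022 for Ccl12 and 0.0309 for Cxcl16. The Cxcl16 call was lost in 13 of 24 fits without 1 library, and that of Ccl12 became 0.0698 without CON CT24 replicate 2 and 0.0725 without SD CT24 replicate 2. No member passed at a single time in kidney by edgeR (12 reached an unadjusted p under 0.05 at CT4, 12 at CT8 and 5 to 10 at the others, and DESeq2 called 7 over all times), where 0.0666% of all tests did.

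A total of 6 members were called lower in both organs, which is 6 of the 19 lower in liver and 6 of the 8 lower in kidney. Over all genes, 19.2% of those lower in liver were lower in kidney and 73% of those lower in kidney were lower in liver. Of the genes tested in both organs 1.80% were lower in both, and 38 members were tested in both. Ccr2, Xcr1, Cx3cr1, Cxcl10 and Cxcl16 were among them. When the kidney effect was tested against the liver effect in one fit, 0 of 51 members differed (5 had an unadjusted p under 0.05), where 3.82% of 27324 genes did. Of the 51, 38 passed the count minimum in both organs (4 with an unadjusted p under 0.05). The others had too few counts in liver, kidney or both to test a difference well. Among them Cxcl2 had an unadjusted p of 0.0279 by edgeR, with at most 5 counts in any kidney library. Same-titled liver and kidney libraries deviated from their group means with a median correlation of 0.0992 (over 0.1 in 6 of 12 pairs, up to 0.44), and with such titles as a block the count stayed at 0. DESeq2 called 1, Ccl9, with a kidney minus liver difference of -0.41 on the log2 scale. The largest log2 difference among the shared 6 was that of Ccr2, by 0.45 weaker in kidney, with an adjusted p of 0.219 by edgeR.

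No member passed in forebrain (0 of 31, with 4 at an unadjusted p under 0.05 and 0 by DESeq2), where 0.0303% of genes were called, nor in cerebellum (0 of 25, with 1 at an unadjusted p under 0.05 and 0 by DESeq2), where the share was 0%. The median log2 change of the members was -0.05 in forebrain and -0.10 in cerebellum. In forebrain the members with the smallest p were Ccl5 at 0.146 CPM in CON and 0.0684 in SD (log2 -0.85 ± 0.27), Ackr4 at 0.209 and 0.388 (0.56 ± 0.19), Ccr2 at 0.533 and 0.388 (-0.69 ± 0.26), Cx3cr1 at 44.2 and 40.4 (-0.11 ± 0.05) and Cxcl16 at 1.40 and 1.13 (-0.23 ± 0.12), each with an SE and an adjusted p of 0.682 or more. In cerebellum they included Cxcl16 at 1.49 and 1.78 CPM (log2 0.25 ± 0.11), Ccr10 at 0.379 and 0.229 (-0.50 ± 0.24), Ccl19 at 0.328 and 0.217 (-0.87 ± 0.46) and Cx3cr1 at 11.4 and 10.5 (-0.10 ± 0.06), all at an adjusted p of 0.907. Without CON CT8 replicate 1 these log2 values were 0.27, -0.46, -0.57 and -0.12, none of them called.

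At the single time CT20, 526 of 23078 genes were called in forebrain. Over the 6 times together 0.381% of all forebrain tests passed. The CT20 calls included 1 of 31 members, beside the 526 of 23078 genes, so the call is not read as particular to the set. It was the microglial receptor Cx3cr1. The CON replicates had 53.4 and 52.6 CPM, the SD replicates 37.2 and 41.1, with a log2 change of -0.44 ± 0.09 (SE, adjusted p = 0.0354), and the call was lost in 9 of 24 fits without 1 library. The CON values at CT20 were the highest of the forebrain, whereas CON at CT24 was at 35.7 and 34.0 CPM. In cerebellum 2281 of 22218 genes were called at CT8. That comparison of 2 against 2 libraries includes CON CT8 replicate 1, so the count is not read as a response to sleep deprivation. Over the 6 times together 1.71% of all cerebellum tests passed. The CT8 calls included 3 of 25 members, beside the 2281 of 22218 genes. These member calls are therefore not read as particular to the set. All 3 rested on CON CT8 replicate 1, the library with the raised antisense share. Cxcr6 had 698 counts in it and 17 in the second replicate, and its log2 change of -4.01 became 0.74 without that library. Ccl19 (50 and 15 counts) went from -3.40 to -2.01 and Ackr4 (112 and 67 counts) from -1.27 to -0.61, all with an adjusted p of 0.997 without it. The Cxcr6 call was also lost without either SD CT8 library (adjusted p = 0.211 and 0.196), and those of Ccl19 and Ackr4 in 15 of 24 fits without 1 library. The test at any time called 0 members in either brain region, against 0% of all genes (0.14% in cerebellum without CON CT8 replicate 1). At an unadjusted p under 0.05 were 4 members in forebrain and 2 in cerebellum, and DESeq2 called 2 and 0.

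The SD effect was then tested for a difference among the 4 tissues in a single fit of all 96 libraries. It differed for 4 of 51 members, where 5.07% of 27324 genes differed. Of the 51, 21 passed the count minimum in all tissues, and 3 of the calls were among them. Cxcl16 (adjusted p = 0.00106 by edgeR) had log2 changes of -0.33 in kidney, -0.31 in liver and -0.23 in forebrain, and 0.25 in cerebellum. Cx3cr1 (adjusted p = 0.00978) had -0.37 and -0.60 in kidney and liver against -0.11 and -0.10 in forebrain and cerebellum. DESeq2 called Cxcl16 and Cx3cr1 as well, and added Ccl2 and Cx3cl1. Without the cerebellum library CON CT8 replicate 1 the adjusted p was 0.00126 for Cxcl16 and 0.00843 for Cx3cr1, where 8.12% of all genes differed. The remaining call was Ccl7 (adjusted p = 0.018), which had at most 7 counts in any forebrain library and 11 in any cerebellum library and an adjusted p of 0.906 for kidney against liver, so it is not read as a difference between tissues.

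**Figure D4:**
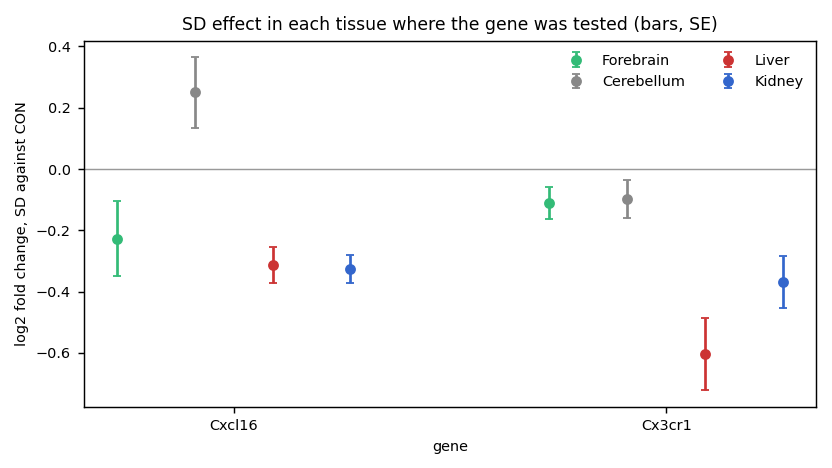
Log2 change in SD against CON, with standard errors, for Cxcl16 and Cx3cr1 in the 4 tissues. Cx3cr1 lies lower in liver and kidney than in forebrain and cerebellum, and Cxcl16 lies above zero in cerebellum at 0.25 and below it in the other tissues.

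Markers of the cells that carry these receptors were tested in the same fits. In liver 8 of 12 T and natural killer cell markers were lower, their summed level going from 28.4 CPM (23.6 to 45.5) in CON to 16.1 (10.8 to 23.3) in SD, with Gzmb at a log2 change of -1.37 and Cd8a at -1.13. Macrophage and Kupffer markers were lower in 8 of 9 tested, from a sum of 1375 CPM (973 to 1881) to 988 (679 to 1124). Neutrophil markers were lower in 5 of 7 (15.3 to 8.78 CPM), B and plasma cell markers in 5 of 6 (14.2 to 8.27 CPM) and dendritic markers in 3 of 5 (40.1 to 26.8 CPM). Hepatocyte markers were higher in 5 of 6, from a sum of 82180 to 92170 CPM, and 1 of 7 endothelial markers was lower. Ly6g had a median of 0 in liver, and Cd68 and Mzb1 are listed at 0 in all 96 libraries.

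In kidney 7 of 12 T and natural killer markers were lower, from a sum of 21.6 CPM (14.6 to 34.5) to 13.2 (10.9 to 20.7), as were 5 of 6 macrophage and 3 of 5 dendritic markers, while 0 of 5 B cell and 0 of 5 neutrophil markers were. Summed fat markers in kidney varied widely in both groups, from 37.1 to 476 CPM in CON and 20.3 to 622 in SD. In forebrain and cerebellum no gene of these lists was called. The part of cell content in the chemokine changes was not tested.

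Part of a list of 31 genes downstream of chemokine receptors, which holds G protein, phosphoinositide 3-kinase, Rac and arrestin genes, was lower in SD. In liver 17 of them were lower and 0 higher, where 8.80% of all genes were lower, and in kidney 8 were lower and 0 higher, where 2.12% were. The median log2 change of the list was -0.35 in liver and -0.09 in kidney. In liver Dock2, a Rac activator, had a log2 change of -0.71, Vav1 of -0.66, Rac2 of -0.65 and Pik3cd of -0.64. In kidney Rac2 had -0.61 and Dock2 -0.51. Gnai3, Rac1, Cdc42 and Gnb1 of the list did not pass in either organ, with liver log2 values of 0.10, 0.06, -0.05 and -0.05. The genes named are examples from the 31, and a difference between kinds of genes in the list was not tested. Of 28 genes that induce or process chemokines (26 tested in each organ), 13 were lower and 1 higher in liver. The interferon regulators Irf7, Irf8 and Irf1 had log2 changes of -0.61, -0.57 and -0.53, the cytokines Tnf and Il1b of -0.86 and -0.79, and Dpp4, the protease that trims chemokines, of 0.16. In kidney 4 of them were lower, Irf7 (-1.0), Irf1 (-0.62), Stat2 (-0.47) and Irf8 (-0.28). Irf9 is listed at 0 in all 96 libraries. No gene of either list was called in forebrain or cerebellum.

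Time of day was examined with a 24 h cosine and sine fit over both conditions. In liver 12 of 43 members were called, where 34.0% of all genes were. Ackr2 had the clearest rhythm of them, with a mean of 12.7 CPM at CT8 (10.43 to 15.1) and 6.60 at CT24 (4.73 to 9.61). Its fitted peak was at CT 8.37 h, with a log2 amplitude of 0.48 (adjusted p = 0.000118 by edgeR). Cxcl12 had its highest mean at another time and went from 418 CPM at CT4 (387 to 462) to 307 at CT12 (269 to 340), with a peak at CT 0.772 h and an amplitude of 0.25 (adjusted p = 0.00089). Ccl9 had a peak at CT 5.68 h and an amplitude of 0.24 (adjusted p = 0.000248), from 104 CPM at CT8 to 77.1 at CT20. Among these genes the 4 libraries at the highest and lowest times did not overlap for Ackr2 and Cxcl12.

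Another group in liver peaked around CT12. Cxcl16 (peak CT 11.6 h, amplitude 0.19, adjusted p = 0.0061) had means of 18.0 CPM at CT12 and 12.2 at CT4. Cx3cl1 (12.2 h, 0.48, adjusted p = 0.00678), Cxcr2 (12 h, 0.72, adjusted p = 0.00904) and Cx3cr1 (12.2 h, 0.32, adjusted p = 0.0119) shared that phase, as did Cxcr5 (12.6 h, 0.17, adjusted p = 0.0496), which was lost in 19 of 24 fits without 1 library. Cxcl5 (10.0 h, amplitude 1.9, adjusted p = 0.0012) rested on levels that never exceeded 1.10 CPM. Ccr7 peaked at 14.3 h (0.37, adjusted p = 0.0247, or 0.0529 without SD CT12 replicate 2), Ackr4 at 17.8 h (0.48, adjusted p = 0.00401) and Ccl27a at 4.78 h (0.21, adjusted p = 0.00654, or 0.110 with library totals alone and 0.0562 with no low-count filter). JTK_CYCLE over the 24 livers did not call Ccl27a, Ccl9, Ccr7, Cx3cr1 or Cxcl16. The rhythms of receptors and ligands were read from whole tissue and say nothing of single cell types.

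**Figure D5:**
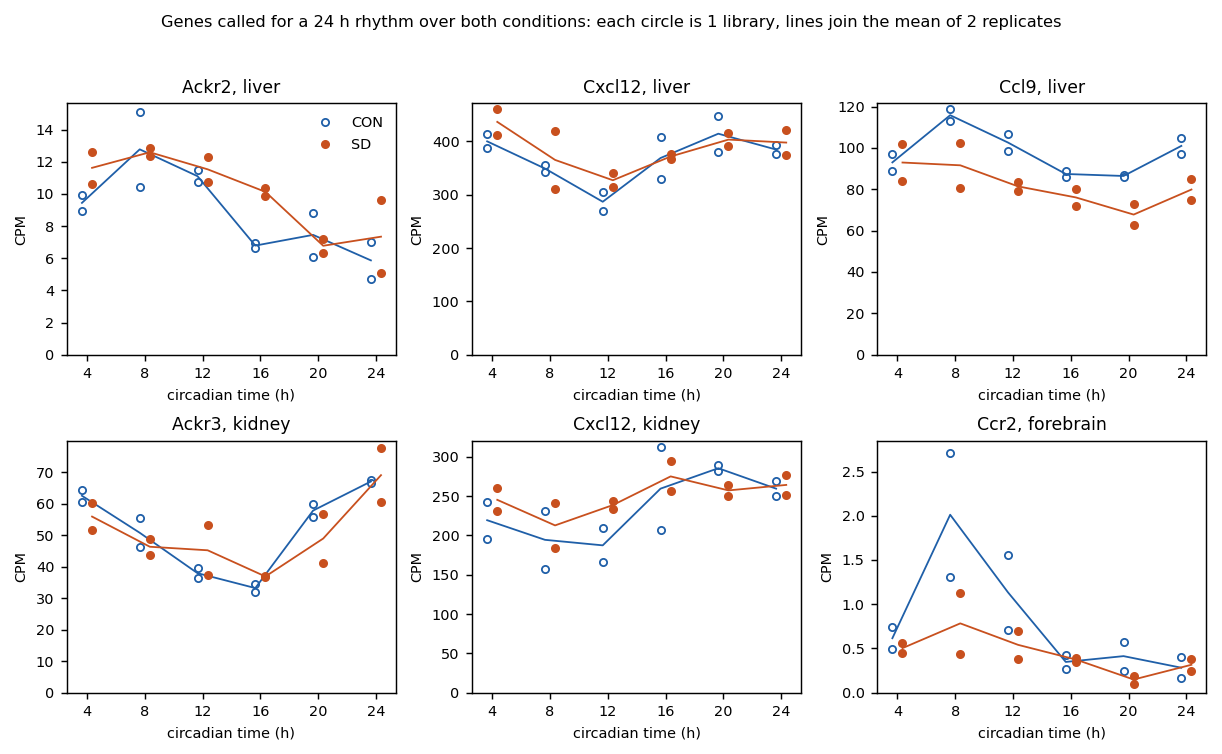
CPM by circadian time for members called for a 24 h rhythm in liver, kidney and forebrain, with each circle 1 library and lines through the mean of 2 replicates. Ackr2 in liver peaks at CT8 with a mean of 12.7 CPM, and Ackr3 in kidney at CT24 with 68.1.

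In kidney 7 of 43 members were called, against 15.1% of all genes. Ackr3 was the clearest, with a mean of 68.1 CPM at CT24 (60.6 to 77.5) and 35.0 at CT16 (31.9 to 37.0), a peak at CT 1.63 h and an amplitude of 0.44 (adjusted p = 4.45e-05). Its ligand Cxcl12 peaked at CT 20.8 h (0.23, adjusted p = 0.00347), from 272 CPM at CT20 to 204 at CT8. Cxcr4, the signalling receptor of the same ligand, peaked at CT 15.2 h (0.35, adjusted p = 0.00196), from 5.0 CPM at CT16 to 3.08 at CT4. Cx3cl1 (13.7 h, 0.17, adjusted p = 0.00297) and Cxcl14 (15.9 h, 0.27, adjusted p = 0.0111) peaked close to it. Ccl7 (1.54 h, 1.27, adjusted p = 0.0142) stayed at or below 1.42 CPM, and Ccl9 (0.723 h, 0.36, adjusted p = 0.0442) was lost in 16 of 24 fits without 1 library.

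In forebrain Ccr2 and Ccl25 were called, 2 of 31, where 3.78% of all genes were. Ccr2 was low throughout, with a mean of 1.40 CPM at CT8 (0.438 to 2.71) and 0.280 at CT20 (0.102 to 0.575), a peak at CT 8.76 h and an amplitude of 1.11 (adjusted p = 0.00486). Ccl25 (4.17 h, 0.18, adjusted p = 0.0459) was lost in 18 of 24 fits without 1 library. In cerebellum edgeR called 0 of 25 members, against 0.347% of all genes (1.08% without CON CT8 replicate 1). Of these members 5 had an unadjusted p under 0.05, and DESeq2 called 1.

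No member's rhythm was shown to differ between SD and CON in any tissue, and neither was that of any gene tested (0% in each tissue). Unadjusted p values under 0.05 were found for 2 members in forebrain, 2 in cerebellum, 4 in liver and 1 in kidney, and DESeq2 called 0 members in each. Within single conditions JTK_CYCLE, a rank test for periodic series, called 1 member, Ackr2 in SD liver (adjusted p = 0.0297), where 5.52% of all genes were called. In CON liver, with 1.01% of genes called, the smallest adjusted p of a member was 0.0516, with 16 of 42 members at an unadjusted p under 0.05. In kidney 0 members were called, against 0.255% of genes in CON and 0.255% in SD, with 10 and 2 members at an unadjusted p under 0.05. In the brain regions both members and genes stood at 0%.

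Some members share bases with neighbours. On the same strand Ackr1 shares 361 exonic bases with Cadm3, which is 25.7% of its exons, so its counts are uncertain. On the opposite strand Cxcl11 overlaps Gm2673 by 41.7% of its exons, Ccr9 overlaps AC165425.1 by 18.8% and Xcl1 overlaps Gm20743 by 18.7%. Cxcl16 overlaps Zmynd15 by 18.3%, Ackr4 overlaps Acad11 by 8.90% and Cxcl10 overlaps Art3 by 5.91%, also on the opposite strand. Counting by strand separates these only as far as reads keep their strand. The Ackr4 call in cerebellum at CT8 rested on the library of raised antisense share, and leakage between strands was not tested. The near-identical copies Ccl21a and Ccl21b, Ccl27a and Ccl27b, and Ccl19 among its own copies, are likewise uncertain, since reads that fit several places were removed. None of these copies was called for SD averaged over time in any tissue.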

How the data were processed

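Total RNA from whole tissue was depleted of ribosomal RNA and made into strand-specific libraries; the labels name a stranded TruSeq protocol and the study's methods also a NEB directional kit. Per the labels and the study's methods, the authors trimmed reads with Trim Galore, aligned them to GRCm38 (mm10) with HISAT2, kept alignments with a mapping quality of 60 and counted them per gene with featureCounts, and the deposited values are raw counts. Such a filter removes reads from near-identical genes. All 96 library files equalled the columns of the series table, 0 pairs of libraries were identical, and 0 columns lacked a sample. Groups came from sample titles.

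Counts were filtered per tissue with filterByExpr, scaled with TMM and tested with edgeR's quasi-likelihood test (edgeR 4.0.16, R 4.3.3). SD averaged over time was fitted with time as a factor, and SD at any or each time with 12 group means. Tissue differences used 1 fit of 96 libraries. Rhythms used 24 h cosine and sine terms, and JTK_CYCLE within conditions on CPM. P-values were adjusted by Benjamini-Hochberg over all genes and called under 0.05. CPM and FPKM use library totals and union exon lengths from GENCODE M21. The fits were tested on simulated data. Alternatives were other size factors, no filter, a stricter filter, DESeq2 1.42.0, a replicate block and leaving out each library.

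The members and lists were chosen with earlier results of these data known. Named genes were members called in any test, the 5 of smallest p for SD in each tissue and the 5 of highest FPKM, while members just outside the threshold and some uncalled ones were added after their values were seen. Replicates are biological repetitions, and p-values measure only the spread between these samples. Same-numbered libraries were not shown to be paired. Total counts ranged from 24.76 to 58.49 M (megacounts), which limits members under 1 CPM to few counts per library. A member of the set is not reported here by name, though counts of members include it.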

Additional observations from a re-analysis of the deposited data

Results flagged for a closer look

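These members were singled out because their SD effect differed between tissues by edgeR's test of the difference over 96 libraries. That test called 4 of 51 members, where 5.07% of all genes were called. The share of all genes was 8.12% without the cerebellum library CON CT8 replicate 1, so the calls are not read as particular to the set. Cxcl16 had an adjusted p of 0.00106, with a log2 change of 0.25 ± 0.11 (SE) in cerebellum against -0.33 ± 0.04 in kidney. Within cerebellum the Cxcl16 change was not called (adjusted p = 0.907 by edgeR). Cx3cr1 had an adjusted p of 0.00978, with -0.60 ± 0.12 in liver against -0.10 ± 0.06 in cerebellum. Both calls held by DESeq2 and without the cerebellum library CON CT8 replicate 1.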

How the results depend on the processing

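Counts of called members for SD averaged over time moved in kidney, from 8 to 14 with no low-count filter and 13 with DESeq2. Over all genes the kidney calls moved too, from 495 of 21528 to 1043 of 36128 and 706 of 20693. For a difference at any time, forebrain moved from 0 to 1 (no filter) and 2 (DESeq2), cerebellum from 0 to 5 (no filter), liver from 6 to 13 (library sizes alone), 21 (no filter) and 14 (DESeq2), and kidney from 4 to 2, 21 and 8 under the same settings. At single times, forebrain moved from 1 to 0 (no filter) and 2 (DESeq2), liver from 4 to 10 (library sizes), 34 (no filter) and 14 (DESeq2), and kidney from 0 to 31 (no filter) and 7 (DESeq2). Rhythms in forebrain moved from 2 to 1 with library sizes, no filter, the replicate block or JTK_CYCLE, and to 0 with time as a factor. Cerebellum moved from 0 to 1 with DESeq2 and liver from 12 to 7 with JTK_CYCLE. The difference of rhythm in liver moved from 0 to 4 with no filter. Kidney against liver moved from 0 to 3 with library sizes and 1 with DESeq2. Within conditions, an edgeR cosine fit gave 1 in CON forebrain, 4 in CON liver, 3 in SD liver and 5 in CON kidney against 0, 0, 1 and 0 by JTK_CYCLE, and TMM-scaled CPM gave 0 in SD liver. For the tests other than SD averaged over time, shares of all genes under these settings are not given. The moves are therefore not read as results about the members, and their causes were not tested.

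Leaving out 1 library gave 17 to 22 members in liver, 7 to 11 in kidney and 0 in both brain regions for SD averaged over time. At any time the ranges were 0 in forebrain, 0 to 6 in cerebellum (6 without CON CT8 replicate 2), 4 to 11 in liver (11 without SD CT16 replicate 1) and 2 to 6 in kidney. At single times they were 0 to 2, 0 to 9, 1 to 9 and 0 to 4 in the same order, and for rhythms 1 to 4, 0 to 1, 10 to 13 and 6 to 11. The difference of rhythm stayed at 0, and JTK_CYCLE in SD liver gave 0 to 1. The log2 change of Cxcr6 in cerebellum at CT8 ranged from -4.985 without CON CT8 replicate 2 to 0.74, a reversed direction, without CON CT8 replicate 1. Of single libraries only cerebellum CON CT8 replicate 1 was left out of the tests across tissues, which kept 4 members for the 4 tissues and 0 for kidney against liver.

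The replicate block left 21 members called in liver and 8 in kidney. Same-numbered CON and SD libraries had median correlations from 0.05 to 0.19 over tissues, and not every pair was above 0.1. With TMM over 96 libraries, FPKM medians in cerebellum became 9.70 for Ccl27a, 7.50 for Ccl25, 6.38 for Cxcl14 and 5.75 for Cxcl12. In liver they became 67.4 for Cxcl12, 41.8 for Ccl9, 10.8 for Ccl6 and 6.65 for Cxcl16. The tissue of the highest median also changed for some members. Ccr1, Ccr2 and Xcr1 moved from kidney to liver, Ackr4 and Ccr9 from cerebellum to liver, and Cxcr5 from cerebellum to forebrain.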
